A study of Mus musculus with 18 samples.

Results

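The comparison described here asks how the response of cardiac fibroblasts to 21 days of isoproterenol (ISO) in 2 inbred mouse strains, C3H/HeJ and KK/HlJ, differed from the response in C57BL/6. It uses 12 of the 18 RNA-seq libraries of the series, those of the day 21 ISO and sham hearts. The members were chosen by their titles: C3H/HeJ ISO day 21, C3H/HeJ sham, KK/HlJ ISO day 21, KK/HlJ sham, C57BL/6 ISO day 21 and C57BL/6 sham, with 2 libraries each. ISO, an agonist of beta-adrenergic receptors, or saline (sham) was given from an implanted pump, and Thy1+ cells were sorted from the hearts. The labels call the sorted population Thy1+ HE cells, or Thy1+HE- in the protocol, without spelling out HE, and they give no dose, sex or age. Sham libraries carry no day, and the labels do not say whether the 2 libraries of a group came from separate animals or from pools. The p-values below therefore rest on library-to-library spread, part of which may be technical.

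Cardiac fibroblasts make and maintain the collagen scaffold of the heart, and Thy1 is a surface protein commonly used to sort them. Sustained beta-adrenergic stimulation strains the heart muscle and drives fibroblasts towards a matrix-secreting, activated state, marked by periostin and other matricellular proteins. The receptor acts through cyclic AMP, protein kinase A and the transcription factor CREB, which switches on immediate early genes. Inbred strains differ widely in how much fibrosis ISO causes. C3H/HeJ carries a loss-of-function allele of Tlr4, and KK/HlJ is a strain used in research on diabetes.

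For each gene the day 21 response is the log2 ratio of ISO day 21 to sham within a strain. The difference of responses is the mean response of C3H/HeJ and KK/HlJ less the response of C57BL/6, so a positive value means a higher response in the 2 strains. It was estimated with its standard error (SE) by edgeR in 1 model of all 18 libraries. Levels are CPM, counts scaled to the effective library size. In the sorted cells 36 resting fibroblast genes summed to 116835 to 158079 CPM of total counts over the 12 libraries, of 8104823 to 25356498 counts each. Sums of markers of other cells were lower. They ran from 760.3 to 2987 CPM for 25 endothelial genes, 1978 to 9509 CPM for 22 pericyte and smooth muscle genes, 383.7 to 1072 CPM for 27 cardiomyocyte genes, 16.76 to 281.1 CPM for 22 macrophage genes and 0 to 21.54 CPM for 22 lymphocyte genes, 8 of which were at 0 in all 18 libraries. Of these 12 libraries, 3 stood apart from the rest of the series, with a median correlation to the other libraries under 0.82. They were replicate 1 of C3H/HeJ sham, of KK/HlJ sham and of KK/HlJ ISO day 21. With 1 KK/HlJ day 14 library they are the 4 libraries left out where values without them are given. Those values rest on 1 library in each of C3H/HeJ sham, KK/HlJ sham and KK/HlJ ISO day 21.

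No gene of the 15762 tested passed an adjusted p of 0.05 for the difference of responses. The smallest adjusted p was 0.552 in edgeR's quasi-likelihood test, and the share called was 0%. At an unadjusted p under 0.05 there were 1186 genes, 7.52% of those tested, of which 713 (4.52%) had a higher and 473 (3%) a lower response in C3H/HeJ and KK/HlJ. DESeq2 called 8 genes on the same counts, each at an adjusted p of 0.0443, and had 1407 genes at an unadjusted p under 0.05. It gave no adjusted p for 11307 of the 15762 genes, so its calls rest on an adjustment over fewer genes than edgeR's. Among its 8 calls Gnptab, Irs2 and Phf2 had the higher response in the 2 strains, and Rplp2, Rpl39, S100a6, S100a13 and Ndufb9 the lower. The median SE over all genes was 1.27 on the log2 scale, so a single gene had to differ several-fold to stand out. Every gene below is therefore described by its values, and none of them passed the edgeR test. The median difference of responses over all genes was 0.22. It was 0.02 when each group mean was held at no less than 3 counts per library, a floor that 4251 genes met in at least 1 group. Where values with offsets are given below, transcript length and GC content were entered as offsets in the same model.

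The responses of the strains pointed in opposite directions for a small part of the genes. In 225 genes, 1.43% of those tested, both ISO libraries lay above both sham libraries in both C3H/HeJ and KK/HlJ, and below both in C57BL/6. The reverse arrangement was met by 202 genes, 1.28%. The first set holds Gnptab, Enpp1, Arhgap31, Akap13 and Egr2, and the second holds Rplp2, S100a6 and 17 genes of the oxidative phosphorylation list, Ndufb9 and Atp5h among them.

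Irs2 and Apold1 had the smallest p-values among the genes with a higher response in C3H/HeJ and KK/HlJ. Irs2, the adaptor that couples insulin and insulin-like growth factor receptors to their kinases (chr8:10984681-11008458, minus strand, GRCm38), had 40.7 and 70.2 CPM with ISO and 53.5 and 62 CPM with sham in C3H/HeJ, 61.8 and 75.6 CPM with ISO and 41.2 and 62.3 CPM with sham in KK/HlJ, and 25 and 25.8 CPM with ISO and 163 and 70.7 CPM with sham in C57BL/6. Both C57BL/6 ISO libraries were below every other library of the comparison, whereas ISO and sham overlapped in the 2 other strains. Its difference of responses was 2.38 ± 0.55 (SE), with responses of -0.06 ± 0.44 in C3H/HeJ, 0.41 ± 0.44 in KK/HlJ, and -2.21 ± 0.46 in C57BL/6. Apold1, an early response gene best known from vascular cells, had 37.2 and 10.1 CPM with ISO and 8.25 and 24.9 CPM with sham in C3H/HeJ, 17.6 and 42 CPM with ISO and 23 and 23.8 CPM with sham in KK/HlJ, and 7.76 and 1.94 CPM with ISO and 118 and 32.9 CPM with sham in C57BL/6. The C57BL/6 ISO libraries were again the lowest, C57BL/6 sham replicate 1 was the highest, and ISO and sham overlapped in C3H/HeJ and KK/HlJ. The difference of responses of Apold1 was 4.39 ± 1.02.

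In Gnptab, Enpp1 and Arhgap31 the responses of C3H/HeJ and KK/HlJ were positive and that of C57BL/6 negative. Gnptab encodes the enzyme that tags lysosomal hydrolases for delivery, and it had 45.5 and 73.8 CPM with ISO and 11.7 and 23.8 CPM with sham in C3H/HeJ, 53 and 68.7 CPM with ISO and 22.8 and 21.8 CPM with sham in KK/HlJ, and 21.4 and 22.7 CPM with ISO and 30.9 and 39.4 CPM with sham in C57BL/6. ISO libraries lay above both sham libraries in the 2 strains and below both in C57BL/6, and the difference of responses was 2.27 ± 0.57. Enpp1, an ectoenzyme that makes pyrophosphate and restrains mineralisation, had 133 and 138 CPM with ISO and 51.8 and 89 CPM with sham in C3H/HeJ, 188 and 118 CPM with ISO and 54 and 67.8 CPM with sham in KK/HlJ, and 39.2 and 50.8 CPM with ISO and 95.1 and 65.8 CPM with sham in C57BL/6. It showed the same separation in all 3 strains, with a difference of responses of 1.98 ± 0.50. Arhgap31, which switches off the GTPases Cdc42 and Rac1, also showed it: 73.7 and 50.3 CPM with ISO and 16.2 and 27.1 CPM with sham in C3H/HeJ, 55.1 and 39.1 CPM with ISO and 6.18 and 31.1 CPM with sham in KK/HlJ, and 5.82 and 19 CPM with ISO and 49.5 and 28.1 CPM with sham in C57BL/6. Its difference of responses was 3.07 ± 0.82.

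In 4 further leading genes, Phf2, Kdm6b, Itpkb and Spry4, a C57BL/6 ISO library was the lowest of the 12, as in Irs2. The difference of responses was 2.21 ± 0.53 for the histone demethylase Phf2, which stood at 22 and 35.5 CPM with ISO and 102 and 71.8 CPM with sham in C57BL/6. Kdm6b, a demethylase that removes a repressive histone mark, had 2.04 ± 0.52, with 30.3 and 32.8 CPM with ISO and 153 and 71 CPM with sham in C57BL/6. For Itpkb, a kinase of the second messenger inositol trisphosphate, it was 2.00 ± 0.50, with 53.3 and 56.5 CPM with ISO and 189 and 120 CPM with sham. Spry4, a feedback inhibitor of receptor tyrosine kinases, had 1.96 ± 0.53 and 24.6 and 16.3 CPM with ISO and 128 and 64.5 CPM with sham in C57BL/6. In each of these 4 genes both C57BL/6 ISO libraries lay below both C57BL/6 sham libraries. Unadjusted p-values of the 9 genes described so far ran from 0.000284 to 0.00126, and each adjusted p was 0.552 or above. C57BL/6 sham replicate 1 was the highest of the 12 libraries in 6 of the 9. Without it the difference was 1.66 for Irs2, 3.20 for Apold1, 1.94 for Phf2, 1.64 for Itpkb, 1.39 for Kdm6b and 1.38 for Spry4. With offsets it was 1.31 for Irs2, 1.03 for Itpkb and 1.0 for Kdm6b.

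**Figure D1:**
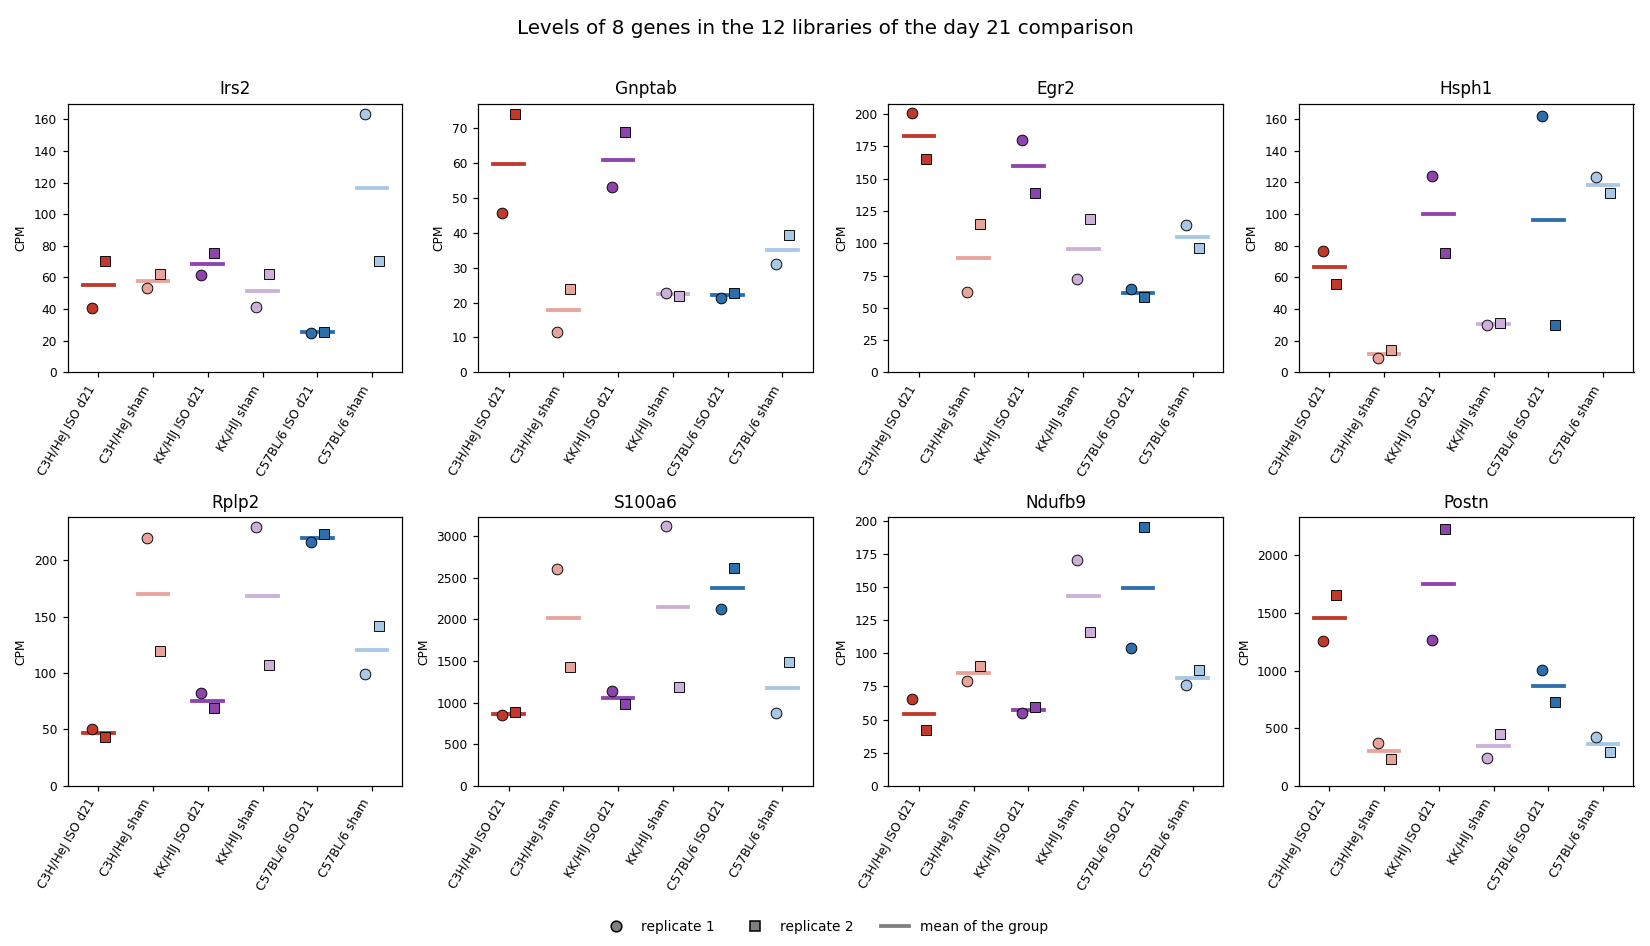
Levels in CPM of 8 genes in the 12 libraries, by strain and treatment; points are libraries, by replicate number, and bars are the means of the 2 libraries. In Irs2 the C57BL/6 ISO libraries are the lowest, in Egr2 ISO lies above sham in C3H/HeJ and KK/HlJ and below it in C57BL/6, in Gnptab and Hsph1 the ISO and sham libraries separate in C3H/HeJ and KK/HlJ, in Rplp2, S100a6 and Ndufb9 ISO is low in those strains and high in C57BL/6, and in Postn ISO is above sham in all 3 strains.

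The 10 genes with the smallest p-values at a lower response held 4 ribosomal protein genes, 3 genes of the S100 family, 2 subunits of mitochondrial complexes and Tmsb10. Rplp2, an acidic protein of the ribosomal stalk (chr7:141447370-141451585, plus strand, GRCm38), had 50.7 and 43.6 CPM with ISO and 220 and 120 CPM with sham in C3H/HeJ, 82.3 and 69 CPM with ISO and 229 and 107 CPM with sham in KK/HlJ, and 216 and 223 CPM with ISO and 99.2 and 142 CPM with sham in C57BL/6. ISO libraries lay below both sham libraries in C3H/HeJ and KK/HlJ and above both in C57BL/6. The difference of responses was -2.36 ± 0.54, with responses of -1.85 ± 0.44 in C3H/HeJ, -1.15 ± 0.44 in KK/HlJ, and 0.86 ± 0.43 in C57BL/6. S100a6, a small calcium-binding protein of fibroblasts, had 852 and 885 CPM with ISO and 2609 and 1432 CPM with sham in C3H/HeJ, 1143 and 980 CPM with ISO and 3118 and 1188 CPM with sham in KK/HlJ, and 2129 and 2623 CPM with ISO and 872 and 1489 CPM with sham in C57BL/6. Its libraries separated in the same way in all 3 strains, and the difference of responses was -2.13 ± 0.52. Its relatives S100a13 and S100a4 had differences of -2.43 ± 0.56 and -2.64 ± 0.63. S100a4, often used as a mark of activated fibroblasts, stood at 90 and 56.3 CPM with ISO and 14.8 and 21.4 CPM with sham in C57BL/6, and its C3H/HeJ and KK/HlJ libraries ranged from 19.1 to 48.3 CPM. With offsets the difference was -1.45 for Rplp2, -1.04 for S100a6, -1.26 for S100a13 and -1.45 for S100a4. Without the 4 libraries that stood apart S100a13 had -1.56.

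Ndufb9, a subunit of respiratory complex I, had 65.5 and 42.4 CPM with ISO and 79.4 and 90.5 CPM with sham in C3H/HeJ, 54.6 and 59.3 CPM with ISO and 170 and 116 CPM with sham in KK/HlJ, and 104 and 195 CPM with ISO and 75.8 and 87.6 CPM with sham in C57BL/6, and its difference of responses was -1.86 ± 0.47. ISO was below sham in both C3H/HeJ and KK/HlJ and above it in C57BL/6, without overlap. Atp5h, a subunit of the ATP synthase, had 40.7 and 46.1 CPM with ISO and 131 and 57.7 CPM with sham in C3H/HeJ, 44.8 and 50 CPM with ISO and 233 and 54.6 CPM with sham in KK/HlJ, and 110 and 138 CPM with ISO and 51.1 and 68.2 CPM with sham in C57BL/6, with a difference of -2.42 ± 0.62. KK/HlJ sham replicate 1 was far above the other libraries of that gene, and without it the difference was -1.72. Tmsb10, which binds actin monomers, had a difference of -2.09 ± 0.53, and the ribosomal proteins Rps15, Rpl32 and Rps24 had -1.98 ± 0.50, -2.10 ± 0.54 and -1.81 ± 0.47. Unadjusted p-values of these 10 genes ran from 0.000223 to 0.000916. Rpl39, named because DESeq2 called it, had a difference of -2.59 ± 0.67 in edgeR. With offsets the differences were smaller, at -0.79 for Ndufb9, -1.28 for Atp5h, -0.95 for Tmsb10, -0.95 for Rps15, -1.16 for Rpl32 and -1.34 for Rpl39. They were also smaller without the 4 libraries that stood apart in Atp5h (-1.32), Tmsb10 (-1.33) and Rps24 (-1.08).

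Ribosomal protein genes as a group had lower responses in C3H/HeJ and KK/HlJ than in C57BL/6. Of the 83 cytosolic ribosomal protein genes tested, 70 had a negative difference of responses, against 43.4% of all genes, and the list's median was -1.31. At an unadjusted p under 0.05 there were 34 in that direction, against 3% of all genes, and 0 in the other. The median response was -0.67 in C3H/HeJ, -0.78 in KK/HlJ and 0.59 in C57BL/6. Both ISO libraries lay above both sham libraries in C57BL/6 in 50 of the 83, against 16.3% of all genes tested. They lay below both in 39 genes in C3H/HeJ and 31 in KK/HlJ, against 16.6% and 11.1% of all genes. Summed over the list, the level was 11894 and 9347 CPM with ISO and 22963 and 13901 CPM with sham in C3H/HeJ, 13655 and 9877 CPM with ISO and 24568 and 13560 CPM with sham in KK/HlJ, and 22275 and 23515 CPM with ISO and 14274 and 15772 CPM with sham in C57BL/6. The ranges of ISO and sham overlapped in KK/HlJ only. Many of these genes have near-identical copies in the genome, so their single values are uncertain, and 12 of the 83 had a group at the floor of 3 counts per library. With those groups held at the floor the median was -1.34, and without the 4 libraries that stood apart it was -0.93.

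Nuclear-encoded oxidative phosphorylation genes had the same direction. Of 77 tested, 70 had a negative difference of responses, against 43.4% of all genes, and the median was -1.19. At an unadjusted p under 0.05 there were 41 with a lower response and 0 with a higher one, against 3% and 4.52% of all genes. The median response was -0.87 in C3H/HeJ, -0.65 in KK/HlJ and 0.44 in C57BL/6. Both ISO libraries were below both sham libraries in 61 of the 77 genes in C3H/HeJ and in 25 in KK/HlJ, and above both in 46 in C57BL/6. Over all genes these shares were 16.6%, 11.1% and 16.3%. Ndufc1, another subunit of complex I, had 26.3 and 25.9 CPM with ISO and 114 and 52 CPM with sham in C3H/HeJ, 32.4 and 25.1 CPM with ISO and 88.9 and 28.1 CPM with sham in KK/HlJ, and 76.5 and 68.5 CPM with ISO and 25.1 and 43.1 CPM with sham in C57BL/6, and a difference of -2.43 ± 0.64. Uqcrh, the hinge protein of complex III, had a difference of -1.56 ± 0.44. The list summed to 8797 and 6642 CPM with ISO and 14396 and 11404 CPM with sham in C3H/HeJ, 9615 and 7308 CPM with ISO and 16010 and 8671 CPM with sham in KK/HlJ, and 12111 and 13303 CPM with ISO and 9670 and 9925 CPM with sham in C57BL/6. Replicate 2 of KK/HlJ sham lay below replicate 1 of KK/HlJ ISO day 21, so these groups overlapped, whereas ISO and sham separated in C3H/HeJ and in C57BL/6. Without the 4 libraries that stood apart the list's median was -0.80. Ndufc1 had a difference of -1.52 and Uqcrh of -0.47 with offsets.

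Proteasome and redox genes also had negative medians, of smaller size. Of 41 proteasome genes 35 had a negative difference of responses, against 43.4% of all genes. Their median was -0.78 (-0.43 without the 4 libraries that stood apart). At an unadjusted p under 0.05 there were 13 with a lower response and 0 with a higher one, against 3% and 4.52% of all genes. Psma6, a subunit of the core, had a difference of -1.45 ± 0.44, Psmb1 had -1.23 ± 0.46, and the activator subunits Psme1 and Psme2, known as interferon-inducible, had -1.40 ± 0.46 and -1.72 ± 0.66. The 33 oxidative stress and detoxification genes had a median of -0.41, with 10 below an unadjusted p of 0.05 at a lower response and 0 at a higher one. Over all genes the shares were again 3% and 4.52%. The superoxide dismutase Sod1 had 232 and 169 CPM with ISO and 489 and 281 CPM with sham in C3H/HeJ, 193 and 174 CPM with ISO and 531 and 210 CPM with sham in KK/HlJ, and 332 and 456 CPM with ISO and 212 and 248 CPM with sham in C57BL/6, and a difference of -1.76 ± 0.47. ISO was below both sham libraries in C3H/HeJ and KK/HlJ and above both in C57BL/6, and KK/HlJ sham replicate 1 was the highest library; without it the difference was -1.35. The glutathione peroxidase Gpx4 had a difference of -1.75 ± 0.54, the glutathione transferase Gstm5 -1.67 ± 0.54 and the peroxiredoxin Prdx5 -1.27 ± 0.41. With offsets the values were -0.54 for Psma6, -0.88 for Psme2, -0.90 for Gpx4 and -0.82 for Gstm5, and without the 4 libraries that stood apart -0.77 for Psmb1 and -1.15 for Sod1.

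**Figure D2:**
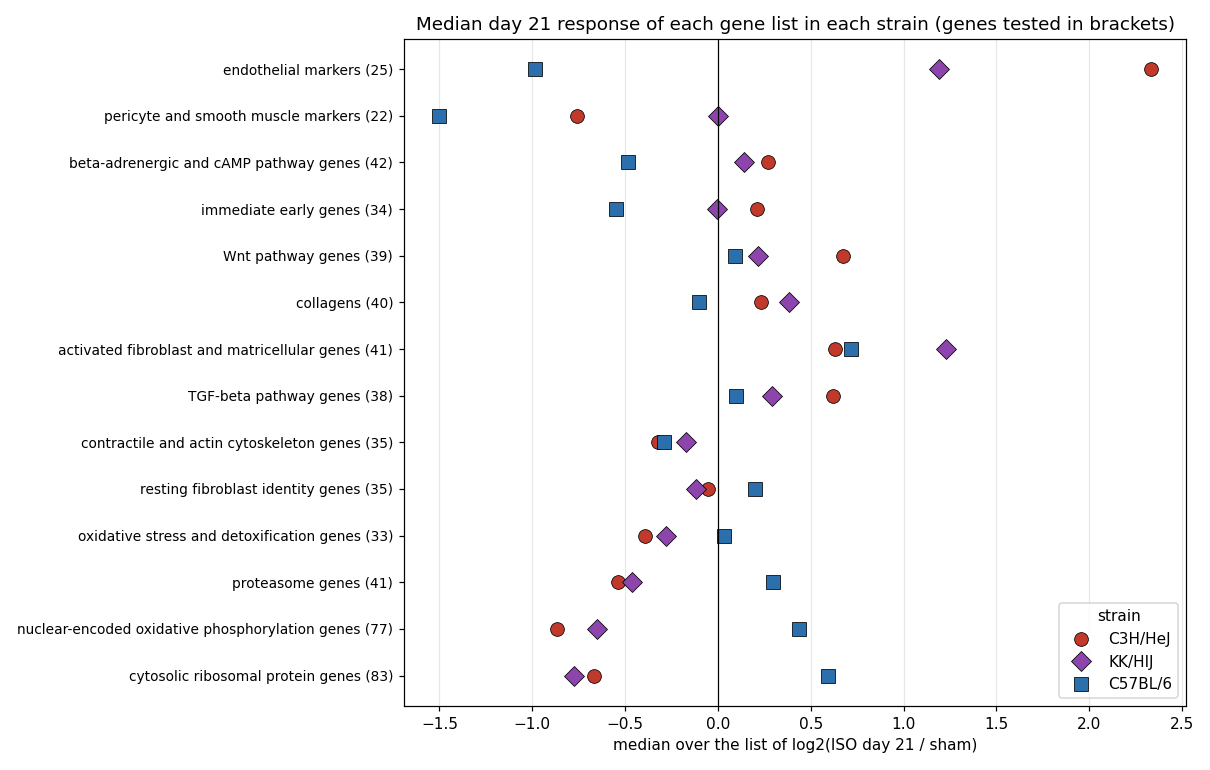
Median log2 ratio of ISO day 21 to sham over the members of 14 gene lists, in C3H/HeJ (circles), KK/HlJ (diamonds) and C57BL/6 (squares). C57BL/6 lies to the right of both other strains for the ribosomal, oxidative phosphorylation, proteasome, redox and resting fibroblast lists, and to the left for the endothelial, pericyte, cAMP, immediate early and collagen lists.

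Transcript length moved with the difference of responses, and it is given here because the lists above hold short transcripts. In 5 groups of equal size from the shortest to the longest transcripts, the median difference was -0.63, -0.10, 0.24, 0.46 and 0.81. The median response of the group with the shortest transcripts was -0.43 in C3H/HeJ, -0.26 in KK/HlJ and 0.27 in C57BL/6, and that of the group with the longest was 0.58, 0.32 and -0.20. Genes below an unadjusted p of 0.05 had a median transcript length of 4985 nt where the response was higher and 1467 nt where it was lower, against 3194.5 nt over all genes. The median length was 1094 nt in the ribosomal list, 1141 nt in the oxidative phosphorylation list and 1907 nt in the proteasome list. Lengths, here and in the offsets, are those of the longest annotated transcript of each gene, which need not be the one expressed. With offsets for transcript length and GC content in the fit, the median was -0.52 for ribosomal, -0.37 for oxidative phosphorylation and -0.31 for proteasome genes, against 0.16 over all genes, and the redox list stood at 0.03. Under those offsets 15 ribosomal and 12 oxidative phosphorylation genes were below an unadjusted p of 0.05, each with a lower response, against 340 (2.16%) of all 15762 genes. The median log2 CPM of the shortest group less that of the longest also differed between replicates. It was -2.44 and -3.15 with ISO and -1.48 and -1.94 with sham in C3H/HeJ. In KK/HlJ it was -2.8 and -3.1 with ISO and -1.77 and -2.55 with sham. C57BL/6 had -2.36 and -2.03 with ISO and -2.79 and -2.98 with sham. What makes length move with strain, treatment and library was not tested.

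**Figure D3:**
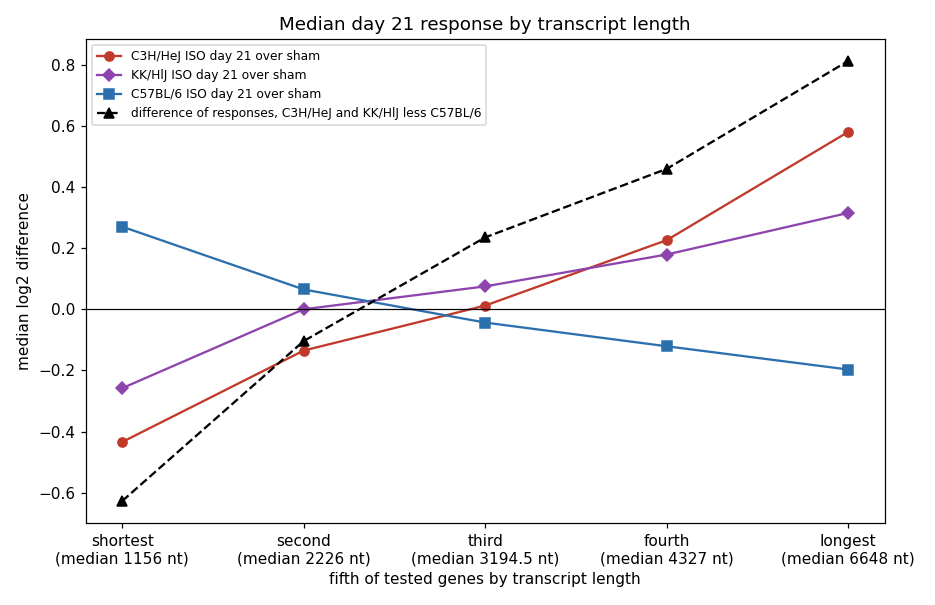
Median log2 difference over 5 groups of tested genes, ordered by transcript length, for the response within each strain and, dashed, for the difference of responses. C3H/HeJ and KK/HlJ rise with length and C57BL/6 declines, and the difference runs from -0.63 in the group with the shortest transcripts to 0.81 in the longest.

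Components of the beta-adrenergic and cAMP pathway had higher responses in C3H/HeJ and KK/HlJ than in C57BL/6. Of the 42 genes tested, 40 had a positive difference of responses, against 56.5% of all genes. At an unadjusted p under 0.05 there were 5 with a higher response and 0 with a lower one, against 4.52% and 3% of all genes. The median was 0.78 (0.62 with groups held at the floor). The median response was 0.27 in C3H/HeJ, 0.14 in KK/HlJ and -0.49 in C57BL/6. Both ISO libraries were below both sham libraries in 17 of the 42 in C57BL/6, against 20.7% of all genes. Akap13, an anchor of protein kinase A, had 189 and 204 CPM with ISO and 29.8 and 105 CPM with sham in C3H/HeJ, 147 and 182 CPM with ISO and 74.8 and 137 CPM with sham in KK/HlJ, and 89.5 and 69.4 CPM with ISO and 140 and 114 CPM with sham in C57BL/6. ISO was above both sham libraries in C3H/HeJ and KK/HlJ and below both in C57BL/6, and the difference was 1.76 ± 0.55. Crtc3, a coactivator of CREB, had a difference of 1.44 ± 0.53, the phosphodiesterase Pde4b, which degrades cAMP, 1.14 ± 0.53, and the catalytic subunit Prkacb of protein kinase A 1.27 ± 0.60. Adrb1, a beta-adrenergic receptor, was near the floor, at 0 CPM in 6 of the 12 libraries and no higher than 2.23 CPM. Its difference of responses, 3.76 ± 3.91, had an error larger than the value, and it was 0.05 without C57BL/6 sham replicate 2. With offsets Crtc3 had 0.82 and Pde4b 0.71; without KK/HlJ ISO day 21 replicate 2 Pde4b had 0.68.

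Immediate early genes, which CREB and serum response factor switch on within minutes, showed the same arrangement. Of 34 tested, 29 had a positive difference, against 56.5% of all genes, and the median was 0.65. At an unadjusted p under 0.05 there were 5 with a higher response and 0 with a lower one, against 4.52% and 3% of all genes. In C57BL/6 both ISO libraries lay below both sham libraries in 21 of the 34 genes, and above both in 0. Over all genes these shares were 20.7% and 16.3%. The median response was 0.21 in C3H/HeJ, -0.01 in KK/HlJ and -0.55 in C57BL/6. Egr2, a zinc finger transcription factor, had 201 and 165 CPM with ISO and 62 and 115 CPM with sham in C3H/HeJ, 180 and 139 CPM with ISO and 72 and 119 CPM with sham in KK/HlJ, and 64.9 and 58.5 CPM with ISO and 114 and 96.3 CPM with sham in C57BL/6. Its ISO libraries lay above both sham libraries in C3H/HeJ and KK/HlJ and below both in C57BL/6, with a difference of 1.67 ± 0.50. Fosb, a partner of Jun in the AP-1 factor, had 2848 and 2899 CPM with ISO and 1705 and 4441 CPM with sham in C3H/HeJ, 2799 and 2861 CPM with ISO and 2407 and 2204 CPM with sham in KK/HlJ, and 964 and 1822 CPM with ISO and 4737 and 2573 CPM with sham in C57BL/6. The C57BL/6 ISO libraries were below both C57BL/6 sham libraries, KK/HlJ ISO was above KK/HlJ sham, and C3H/HeJ ISO lay between its sham libraries. The difference was 1.49 ± 0.47 for Fosb, 1.38 ± 0.47 for Fosl2 and 1.16 ± 0.44 for Jun. Without C57BL/6 sham replicate 1 the difference was 0.99 for Fosb and 0.57 for Fosl2, with offsets Fosl2 had 0.38, and without the 4 libraries that stood apart Jun had 0.72. The list's median was 0.78 once length and GC content entered as offsets, and without the 4 libraries that stood apart 0.61.

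The letters TGACG, the core of the CREB element, on either strand (CGTCA when read on the other), were looked up in the 250 bases before the start of each RefSeq promoter (GRCm38.p6). They were present in 17.8% of all 32851 promoters and in 25.1% of the 14618 promoters of tested genes. Of the 34 immediate early genes, 27 had a promoter in the table and 17 of them held the letters in at least 1 promoter, as did 15 of 29 cAMP pathway genes. Counted in the same way by gene, 3354 of the 11415 tested genes with a promoter held them, or 29.4%. A count by gene rises with the number of promoters per gene, which differed between these sets. Counted by promoter, 24 of 37 of immediate early genes (64.9%) and 19 of 54 of cAMP pathway genes (35.2%) held them, against the 25.1% of tested genes. The promoters of Fosl2, Jun, Akap13 and Crtc3 held none. The stretches of Fosb, Egr2 and Apold1 are shown as examples of such a match, and were chosen because they hold one. The matches are in capitals, and the strand is that of the gene. They begin 60 bases before the start in Fosb, 111 and 55 in Egr2 and 52 in Apold1. For Egr2 the promoter with the most matches of 5 is given. A match of letters is a description of the sequence only.
Fosb (chr7:19310046-19310295, minus strand): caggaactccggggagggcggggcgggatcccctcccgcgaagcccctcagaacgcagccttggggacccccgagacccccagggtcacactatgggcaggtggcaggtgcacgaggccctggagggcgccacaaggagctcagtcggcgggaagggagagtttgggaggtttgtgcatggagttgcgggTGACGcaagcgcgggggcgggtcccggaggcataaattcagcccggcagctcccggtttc
Egr2 (chr10:67537619-67537868, plus strand): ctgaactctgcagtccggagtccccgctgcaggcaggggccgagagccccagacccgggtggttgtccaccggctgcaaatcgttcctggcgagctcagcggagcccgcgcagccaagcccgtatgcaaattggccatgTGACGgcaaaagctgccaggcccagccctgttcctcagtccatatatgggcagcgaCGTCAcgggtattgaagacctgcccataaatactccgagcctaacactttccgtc
Apold1 (chr6:134981751-134982000, plus strand): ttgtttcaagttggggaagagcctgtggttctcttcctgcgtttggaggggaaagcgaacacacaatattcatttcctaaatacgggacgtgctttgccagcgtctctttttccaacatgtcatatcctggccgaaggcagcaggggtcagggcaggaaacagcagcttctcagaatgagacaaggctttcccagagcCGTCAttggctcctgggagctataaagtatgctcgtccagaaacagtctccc

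Matrix genes of activated fibroblasts were higher with ISO in all 3 strains, with a median response over 41 genes of 0.63 in C3H/HeJ, 1.23 in KK/HlJ and 0.72 in C57BL/6. Postn, the matricellular protein periostin, had 1256 and 1659 CPM with ISO and 372 and 237 CPM with sham in C3H/HeJ, 1264 and 2232 CPM with ISO and 246 and 448 CPM with sham in KK/HlJ, and 1003 and 732 CPM with ISO and 424 and 297 CPM with sham in C57BL/6. ISO was above sham in every strain without overlap, with responses of 2.26 ± 0.40 in C3H/HeJ, 2.33 ± 0.40 in KK/HlJ, and 1.27 ± 0.39 in C57BL/6 and a difference of 1.03 ± 0.47. Ltbp2, a latent TGF-beta binding protein of microfibrils, had 379 and 225 CPM with ISO and 58.9 and 121 CPM with sham in C3H/HeJ, 412 and 269 CPM with ISO and 71.2 and 60.1 CPM with sham in KK/HlJ, and 103 and 132 CPM with ISO and 75.6 and 67.8 CPM with sham in C57BL/6. ISO was again above sham in every strain, and the difference was 1.34 ± 0.47. Fn1, fibronectin, had 1551 and 1587 CPM with ISO and 295 and 907 CPM with sham in C3H/HeJ, 1656 and 1683 CPM with ISO and 287 and 691 CPM with sham in KK/HlJ, and 412 and 744 CPM with ISO and 579 and 509 CPM with sham in C57BL/6. Its C3H/HeJ and KK/HlJ ISO libraries stood above all others, C57BL/6 ISO and sham overlapped, and the difference was 1.49 ± 0.56. Dkk3, a secreted glycoprotein of the Dickkopf family, had a difference of 1.06 ± 0.45. Of the 41 genes, 5 were below an unadjusted p of 0.05 with a higher response and 1 with a lower one, against 4.52% and 3% of all genes. The list's median difference was 0.47 (0.34 with groups held at the floor). It was 0.05 for C3H/HeJ alone and 0.58 for KK/HlJ alone. In 17 of the 41 genes both strains had the higher response, against 6284 of all 15762. Both ISO libraries were above both sham libraries in 22 genes in C3H/HeJ, 24 in KK/HlJ and 21 in C57BL/6, against 18.5%, 14.4% and 16.3% of all genes. With offsets the list's median was 0.30, and the difference was 1.62 for Postn, 0.35 for Ltbp2 and 0.93 for Fn1. Without the 4 libraries that stood apart Fn1 had 0.95 and Dkk3 0.70.

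Collagens differed less clearly. Col3a1, a fibrillar collagen chain of the heart, had 10321 and 12395 CPM with ISO and 3750 and 7594 CPM with sham in C3H/HeJ, 8574 and 14773 CPM with ISO and 3403 and 8405 CPM with sham in KK/HlJ, and 3636 and 7158 CPM with ISO and 6126 and 4466 CPM with sham in C57BL/6. ISO was above both sham libraries in C3H/HeJ and in KK/HlJ, while in C57BL/6 the ISO libraries enclosed both sham libraries, and the difference was 0.97 ± 0.61. Col1a1, the main fibrillar collagen chain, had 6346 and 6258 CPM with ISO and 3796 and 6739 CPM with sham in C3H/HeJ, 5408 and 5880 CPM with ISO and 4244 and 4291 CPM with sham in KK/HlJ, and 2030 and 4332 CPM with ISO and 3354 and 2591 CPM with sham in C57BL/6, with overlap in C3H/HeJ and C57BL/6 and a difference of 0.23 ± 0.40. Col12a1, which decorates collagen fibrils, had 28.5 and 41.6 CPM with ISO and 6.6 and 16.5 CPM with sham in C3H/HeJ, 63.1 and 85.7 CPM with ISO and 6.44 and 16.1 CPM with sham in KK/HlJ, and 36.6 and 23.6 CPM with ISO and 27.9 and 22.1 CPM with sham in C57BL/6, and a difference of 1.90 ± 0.72. Col14a1 and Col5a2 had differences of 0.93 ± 0.46 and 1.0 ± 0.50. Of 40 collagen genes tested 2 were below an unadjusted p of 0.05 with a higher response and 0 with a lower one. Over all genes the shares were 4.52% and 3%, so the collagen count was near that of all genes. The 2 were Col12a1 and Col11a1, and Col11a1 was near the floor, no higher than 2.56 CPM in any of the 12 libraries. The collagen median of 0.51 became -0.10 with offsets. The median collagen transcript is 6083.5 nt long. With offsets the difference was 0.25 for Col3a1, 0.05 for Col14a1 and 0.13 for Col5a2, and Col1a1 turned to -0.63. Without C57BL/6 ISO day 21 replicate 1 it was 0.56 for Col3a1 and 0.60 for Col14a1, and Col3a1 had 1.54 without replicate 2 of that group.

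Resting fibroblast genes had a median difference of -0.28 over 35 tested. At an unadjusted p under 0.05 there were 5 with a lower response and 0 with a higher one, against 3% and 4.52% of all genes. Ly6a, the surface antigen Sca1 of resting fibroblasts, had 1335 and 1167 CPM with ISO and 1942 and 1806 CPM with sham in C3H/HeJ, 1243 and 1008 CPM with ISO and 1450 and 990 CPM with sham in KK/HlJ, and 1108 and 1634 CPM with ISO and 859 and 755 CPM with sham in C57BL/6, and a difference of -1.11 ± 0.37. ISO was below sham in C3H/HeJ, overlapped it in KK/HlJ and was above it in C57BL/6. Igfbp6, a binding protein of insulin-like growth factor, had a difference of -1.45 ± 0.51, the membrane dipeptidase Dpep1 -0.89 ± 0.39 and the microfibril protein Mfap5 -1.05 ± 0.45. Outside that list the microfibril protein Mfap2 had -1.15 ± 0.54 and the metalloproteinase Mmp23 -1.31 ± 0.46. The lineage markers Pdgfra and Tcf21 had differences of 0.87 ± 0.54 and -0.10 ± 0.41. Tcf21, a transcription factor of the fibroblast lineage, ranged only from 258 to 479 CPM over the 12 libraries. The protease inhibitor Timp3 had 1224 and 1342 CPM with ISO and 454 and 366 CPM with sham in C3H/HeJ, 920 and 1127 CPM with ISO and 779 and 1129 CPM with sham in KK/HlJ, and 1394 and 999 CPM with ISO and 1420 and 1020 CPM with sham in C57BL/6. Its ISO libraries were far above sham in C3H/HeJ, while ISO and sham overlapped in KK/HlJ and C57BL/6, and the difference was 0.90 ± 0.39. With offsets the list's median was -0.10, and the difference was -0.17 for Ly6a, -0.63 for Igfbp6, -0.40 for Mfap2, -0.77 for Mmp23, 0.10 for Pdgfra and 0.39 for Timp3. Igfbp6 had -0.89 without C57BL/6 ISO day 21 replicate 2, and Pdgfra 0.55 without the 4 libraries that stood apart.

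Cytoskeletal genes were split. Of 35 contractile and actin cytoskeleton genes, 5 were below an unadjusted p of 0.05 with a higher response and 2 with a lower one, around a median of 0.24. Over all genes the shares were 4.52% and 3%. Vcl, the focal adhesion protein vinculin, had 147 and 221 CPM with ISO and 75.4 and 187 CPM with sham in C3H/HeJ, 136 and 217 CPM with ISO and 118 and 118 CPM with sham in KK/HlJ, and 63.4 and 58.7 CPM with ISO and 123 and 110 CPM with sham in C57BL/6. The C57BL/6 ISO libraries were the lowest of all, and ISO was above sham in KK/HlJ but overlapped it in C3H/HeJ, with a difference of 1.47 ± 0.48. The non-muscle myosin Myh10 had a difference of 1.46 ± 0.47 and the crosslinker Actn1 1.69 ± 0.62, whereas the myosin light chain Myl6 had -1.40 ± 0.48 (-0.93 without KK/HlJ sham replicate 1). With offsets Vcl had 0.78 and Myh10 0.91. Acta2, the smooth muscle actin used as a mark of myofibroblasts, had 421 and 373 CPM with ISO and 623 and 814 CPM with sham in C3H/HeJ, 411 and 421 CPM with ISO and 465 and 444 CPM with sham in KK/HlJ, and 484 and 190 CPM with ISO and 901 and 417 CPM with sham in C57BL/6, and a difference of 0.47 ± 0.73. ISO was below both sham libraries in C3H/HeJ and KK/HlJ, and overlapped sham in C57BL/6. Its difference turned to -0.18 without C57BL/6 sham replicate 1.

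Within the TGF-beta pathway 4 of 38 genes were below an unadjusted p of 0.05 with a higher response and 0 with a lower one. Over all genes the shares were 4.52% and 3%. The pathway's median was 0.35. With offsets the median was 0.13, against 0.16 over all genes, and it was 0.23 without C57BL/6 sham replicate 1 and 0.57 without C57BL/6 ISO day 21 replicate 1. Ski, a corepressor that restrains Smad signalling, had 420 and 466 CPM with ISO and 199 and 402 CPM with sham in C3H/HeJ, 350 and 362 CPM with ISO and 254 and 306 CPM with sham in KK/HlJ, and 146 and 158 CPM with ISO and 391 and 239 CPM with sham in C57BL/6, and a difference of 1.51 ± 0.43. C57BL/6 ISO was below every other library. The common mediator Smad4 had a difference of 0.97 ± 0.43, and Thbs1, thrombospondin, which activates latent TGF-beta, 1.60 ± 0.71. In the Wnt pathway the counts were 4 higher and 1 lower of 39, against 4.52% and 3% of all genes. The Wnt median was 0.62 (0.47 with groups held at the floor). That median was 0.27 with offsets, 0.38 without the 4 libraries that stood apart and 0.16 without C57BL/6 sham replicate 2. The Wnt coreceptor Lrp5 had a difference of 1.32 ± 0.48, and the receptors Fzd4 and Fzd8 1.51 ± 0.61 and 1.73 ± 0.71. With offsets Ski had 0.74, Thbs1 0.71, Lrp5 0.73, Fzd4 0.93 and Fzd8 0.70, and Fzd4 had 0.82 without the 4 libraries that stood apart.

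Endothelial markers had a median difference of 3.01 over 25 genes (2.97 with groups held at the floor). At an unadjusted p under 0.05 there were 9 with a higher response and 0 with a lower one, against 4.52% and 3% of all genes. In bulk RNA, fewer cells of a type and less RNA of its genes per cell cannot be told apart. The median response was 2.33 in C3H/HeJ, 1.19 in KK/HlJ and -0.98 in C57BL/6. Cdh5, the junction protein VE-cadherin, had 239 and 12.4 CPM with ISO and 3.3 and 9.08 CPM with sham in C3H/HeJ, 14.3 and 21.2 CPM with ISO and 0 and 1.29 CPM with sham in KK/HlJ, and 2.91 and 1.18 CPM with ISO and 4.28 and 26.3 CPM with sham in C57BL/6. Replicate 1 of C3H/HeJ ISO was far above all other libraries, and ISO lay above sham in C3H/HeJ and KK/HlJ and below it in C57BL/6. Its difference was 7.46 ± 2.06. Pecam1, a platelet and endothelial adhesion molecule, had 169 and 23.7 CPM with ISO and 26.4 and 27.3 CPM with sham in C3H/HeJ, 37.9 and 27.9 CPM with ISO and 11 and 12.8 CPM with sham in KK/HlJ, and 40.7 and 17.2 CPM with ISO and 38.5 and 53 CPM with sham in C57BL/6, again with that library apart, and a difference of 2.32 ± 0.80. The sialomucin Emcn had a difference of 5.28 ± 1.83 and the fatty acid transporter Cd36 2.72 ± 1.08. The list summed to 3099 and 970 CPM with ISO and 988 and 1292 CPM with sham in C3H/HeJ, 1014 and 1139 CPM with ISO and 802 and 975 CPM with sham in KK/HlJ, and 1051 and 927 CPM with ISO and 1226 and 1418 CPM with sham in C57BL/6. Without replicate 1 of C3H/HeJ ISO day 21 its median was 1.89, and Pecam1 had 1.31. Without C57BL/6 sham replicate 2 Emcn had 3.22 and Cd36 1.77, and Cd36 had 4.19 without C57BL/6 ISO day 21 replicate 1. In C3H/HeJ ISO day 21 replicate 1 the 22 macrophage markers also summed highest, at 281.1 CPM of total counts. The other 11 libraries had at most 48.68 CPM. The part of such cells in the values of C3H/HeJ ISO day 21 replicate 1 was not tested.

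Pericyte and smooth muscle markers were high in C57BL/6 sham. Over 22 genes the median difference was 1.23, with 6 below an unadjusted p of 0.05 at a higher response and 0 at a lower one. Over all genes the shares were 4.52% and 3%. The median response was -0.76 in C3H/HeJ, 0.00 in KK/HlJ and -1.50 in C57BL/6. There both ISO libraries were below both sham libraries in 20 of the 22 genes, against 20.7% of all genes. Rgs4, a regulator of G protein signalling enriched in pericytes, had 49.1 and 58.2 CPM with ISO and 40.2 and 137 CPM with sham in C3H/HeJ, 140 and 105 CPM with ISO and 63 and 94.7 CPM with sham in KK/HlJ, and 54.6 and 32.6 CPM with ISO and 283 and 131 CPM with sham in C57BL/6, and a difference of 2.20 ± 0.68. C57BL/6 sham replicate 1 was the highest library, and C57BL/6 ISO lay below both C57BL/6 sham libraries. Pdgfrb, the platelet-derived growth factor receptor of mural cells and fibroblasts, had 593 and 609 CPM with ISO and 368 and 945 CPM with sham in C3H/HeJ, 698 and 567 CPM with ISO and 375 and 595 CPM with sham in KK/HlJ, and 245 and 324 CPM with ISO and 1028 and 540 CPM with sham in C57BL/6, and a difference of 1.59 ± 0.50. Mcam, Mylk and Cspg4 had differences of 1.80 ± 0.67, 2.41 ± 0.92 and 1.96 ± 0.76. The list summed to 2498 and 2920 CPM with ISO and 2984 and 5109 CPM with sham in C3H/HeJ, 3859 and 3867 CPM with ISO and 3087 and 4142 CPM with sham in KK/HlJ, and 3619 and 2038 CPM with ISO and 9212 and 5334 CPM with sham in C57BL/6. Without C57BL/6 sham replicate 1 the median was 0.86, Mcam had 1.12 and Mylk 1.47. Without C3H/HeJ sham replicate 2 the median was 1.92. With offsets Pdgfrb had 0.90 and Cspg4 1.21. C57BL/6 sham replicate 1 was also the highest library of Fosb and Fosl2 and of 6 of the 9 genes described first, and the part of these markers in those values was not tested.

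**Figure D4:**
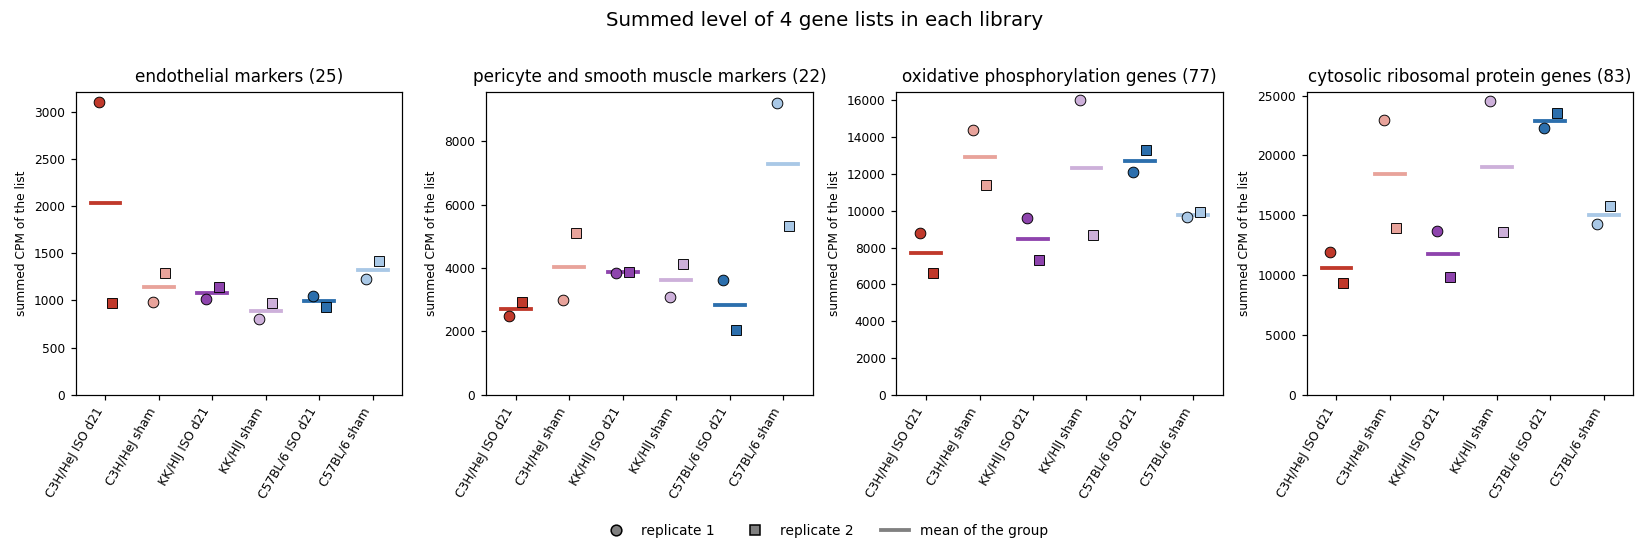
Summed CPM of the tested members of 4 gene lists in each of the 12 libraries, by strain and treatment; points are libraries and bars are the means of the 2 libraries. One C3H/HeJ ISO library stands apart for endothelial markers, C57BL/6 sham lies highest for pericyte and smooth muscle markers, and C57BL/6 ISO lies above C57BL/6 sham for oxidative phosphorylation and ribosomal genes.

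Hsph1, a chaperone that assists the folding of denatured proteins and one of the genes given whatever it showed, had 76.7 and 55.9 CPM with ISO and 9.27 and 14.4 CPM with sham in C3H/HeJ, 124 and 75.6 CPM with ISO and 30.1 and 31.2 CPM with sham in KK/HlJ, and 162 and 30.2 CPM with ISO and 123 and 113 CPM with sham in C57BL/6. ISO was above sham in C3H/HeJ and KK/HlJ without overlap, and in C57BL/6 the ISO libraries enclosed the sham ones. The response was 2.48 ± 0.55 in C3H/HeJ, 1.70 ± 0.53 in KK/HlJ, and -0.30 ± 0.52 in C57BL/6, and the difference 2.39 ± 0.65 (4.06 without C57BL/6 ISO day 21 replicate 1). Its difference between C3H/HeJ with KK/HlJ and C57BL/6 was -0.24 ± 0.44 in ISO and -2.63 ± 0.43 in sham libraries. The list of 50 chaperones had a median of 0.04 (-0.05 under RLE scaling). At an unadjusted p under 0.05 there were 4 with a higher response and 1 with a lower one, against 4.52% and 3% of all genes. The stress-induced immunophilin Fkbp5 had a difference of 2.16 ± 0.79, Hspa2 1.45 ± 0.55 and the mitochondrial cochaperonin Hspe1, a short transcript, -2.04 ± 0.72. Fkbp5 had 0.72 without C57BL/6 sham replicate 1, and Hspe1 -1.03 with offsets.

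In C3H/HeJ alone, 0 genes passed the edgeR test against C57BL/6, and 972 (6.17%) were below an unadjusted p of 0.05, 573 (3.64%) with a higher and 399 (2.53%) with a lower response. The C3H/HeJ difference is the C3H/HeJ response less that of C57BL/6. Sptbn1, the spectrin that lines the plasma membrane, had 1633 and 1854 CPM with ISO and 487 and 609 CPM with sham in C3H/HeJ, 1210 and 1570 CPM with ISO and 524 and 1239 CPM with sham in KK/HlJ, and 1056 and 721 CPM with ISO and 1156 and 1258 CPM with sham in C57BL/6. ISO was above sham in C3H/HeJ by more than the spread, and it overlapped sham in KK/HlJ; the C3H/HeJ difference was 2.11 ± 0.53. The endocytic protein Fchsd2 had a C3H/HeJ difference of 3.76 ± 0.94, the scaffold Iqgap1 1.92 ± 0.49 and the ubiquitin ligase Smurf2, which targets TGF-beta receptors, 2.20 ± 0.58. Among lower C3H/HeJ differences, Rplp2 had -2.71 ± 0.62, Tmsb10 -2.58 ± 0.62 and S100a13 -2.60 ± 0.65.

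In KK/HlJ alone, 0 genes passed as well, and 1017 (6.45%) were below an unadjusted p of 0.05, 658 (4.17%) with a higher and 359 (2.28%) with a lower response. Among the leading genes 3 were nearly silent in KK/HlJ sham. Eif5a2, a translation factor, had 443 and 94 counts in KK/HlJ ISO and 0 and 0 counts in KK/HlJ sham, at least 62.3-fold higher against a floor of 3 counts per library. Uggt2, which checks glycoprotein folding, had 355 and 206 counts in KK/HlJ ISO and 1 and 1 in KK/HlJ sham. Nfatc2ip, a regulator of NFAT signalling, had 413 and 58 counts in KK/HlJ ISO and 0 and 1 in KK/HlJ sham. In the C3H/HeJ and C57BL/6 libraries these 3 genes had between 37 and 620 counts. The ubiquitin ligase adaptor Fem1b had 51.4 and 65.6 CPM with ISO and 40.2 and 52.8 CPM with sham in C3H/HeJ, 76.9 and 77 CPM with ISO and 18.2 and 17 CPM with sham in KK/HlJ, and 45 and 26 CPM with ISO and 50.4 and 44.5 CPM with sham in C57BL/6, and a KK/HlJ difference of 2.55 ± 0.58. Wfdc2, a secreted protease inhibitor of epithelia, had 2.1 and 2.32 CPM with ISO and 3.22 and 3.66 CPM with sham in C3H/HeJ, 15.1 and 15.7 CPM with ISO and 161 and 28.5 CPM with sham in KK/HlJ, and 6.26 and 4.29 CPM with ISO and 1.57 and 1.61 CPM with sham in C57BL/6. It was by far the highest in KK/HlJ sham replicate 1, and the KK/HlJ difference was -4.34 ± 1.05. The noncoding RNA Zfas1 had a KK/HlJ difference of -2.72 ± 0.72 and the ribosomal gene Rpl13 -2.85 ± 0.76.

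When the responses of C3H/HeJ and KK/HlJ were set directly against each other, 0 genes passed the edgeR test, and 534 (3.39%) were below an unadjusted p of 0.05, 244 (1.55%) higher and 290 (1.84%) lower in C3H/HeJ. DESeq2 called 6. The list medians of this difference were near 0 for ribosomal (-0.05), proteasome (0.02) and cAMP genes (0.05). Oxidative phosphorylation genes had -0.20 and immediate early genes 0.25. Medians were further from 0 for activated fibroblast genes (-0.39) and for endothelial (0.80), pericyte (-0.60), cardiomyocyte (1.40) and macrophage (1.53) markers. The splicing list had 0.75, with responses of 0.34 in C3H/HeJ, -0.44 in KK/HlJ and 0.17 in C57BL/6 over 38 genes; its difference from C57BL/6 was -0.27, and 0.35 without the 4 libraries that stood apart. The nuclear speckle protein Srrm2 had 125 and 128 CPM with ISO and 32.9 and 70.7 CPM with sham in C3H/HeJ, 132 and 118 CPM with ISO and 126 and 105 CPM with sham in KK/HlJ, and 65.1 and 61.2 CPM with ISO and 106 and 108 CPM with sham in C57BL/6. ISO was above both sham libraries in C3H/HeJ, overlapped them in KK/HlJ and was below both in C57BL/6. The paraspeckle RNA Neat1 had 21.6 and 30.2 CPM with ISO and 29.4 and 30.9 CPM with sham in C3H/HeJ, 32.9 and 29 CPM with ISO and 63.5 and 40 CPM with sham in KK/HlJ, and 92.3 and 102 CPM with ISO and 31.1 and 45.4 CPM with sham in C57BL/6, and a difference of responses from C57BL/6 of -1.83 ± 0.52, with C57BL/6 ISO the highest.

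Immune-related lists held genes of either sign. The interferon-stimulated list had a median of 0.41 (0.37 with groups held at the floor), and -0.10 without C57BL/6 sham replicate 1. At an unadjusted p under 0.05 there were 3 of 48 genes with a higher response and 2 with a lower one, against 4.52% and 3% of all genes. Igtp, an interferon-inducible GTPase, had 41.4 and 25.4 CPM with ISO and 18.5 and 25.9 CPM with sham in C3H/HeJ, 28.2 and 15.8 CPM with ISO and 13.1 and 12 CPM with sham in KK/HlJ, and 13.8 and 7.83 CPM with ISO and 42.3 and 30.3 CPM with sham in C57BL/6, and a difference of 2.45 ± 0.75, with C57BL/6 ISO below C57BL/6 sham. The chemokine Cxcl16 had a difference of -1.50 ± 0.48 and the oncostatin M receptor Osmr 1.70 ± 0.58. Complement genes had a median of 0.13 (0.01 at the floor), chemokines and cytokines 0.26 (-0.03 at the floor) and the histocompatibility genes 0.02. Of 20, 33 and 24 tested, 0, 4 and 0 were below an unadjusted p of 0.05 at a higher response and 0, 1 and 1 at a lower one. These 3 medians held no direction: without C3H/HeJ ISO day 21 replicate 1 they were -0.11, -0.02 and -0.16.

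The remaining lists, of 7 to 39 genes tested, each held between 0 and 2 genes below an unadjusted p of 0.05 in either direction. Over all genes the shares were 4.52% with a higher and 3% with a lower response. In lists this short such counts can lie on either side of those shares. Elastic fibre genes, for example, had 1 of 19 higher and 2 lower. Their medians were 0.14 for elastic fibre, 0.41 for proteoglycan, 0.17 for matrix protease, -0.08 for growth factor, 0.02 for endoplasmic reticulum folding, 0.25 for glycolysis and hypoxia, 0.49 for lipid and adipogenic and 0.25 for cell cycle genes. Several turned: elastic fibre to -0.27 with offsets, growth factor to 0.29 without the 4 libraries that stood apart, matrix protease to -0.08 without C57BL/6 ISO day 21 replicate 1, endoplasmic reticulum folding to -0.06 under RLE scaling and cell cycle to -0.12 with groups held at the floor. The lipid list had 0.15 with offsets. Among markers, cardiomyocyte genes had a median of 0.69 (-0.31 without C3H/HeJ ISO day 21 replicate 1), Schwann cell genes 0.13 (-0.06 without that library), epicardial genes -0.81 and erythroid genes -0.83. Epicardial genes had 0.31 without C3H/HeJ sham replicate 2 and -0.07 without the 4 libraries that stood apart. Erythroid genes turned to 1.29 without those 4 libraries, 1.43 without KK/HlJ sham replicate 1 and 0.10 with offsets. The epicardial keratin Krt19 had a difference of -2.31 ± 0.75, whereas Aldh1a2, the retinoic acid enzyme of epicardium and fibroblasts, had 1.28 ± 0.47. Krt19 had -1.22 without the 4 libraries that stood apart, and Aldh1a2 0.80 without C57BL/6 sham replicate 1. Macrophage and lymphocyte markers were mostly at the floor, in 14 of 19 and 6 of 7 tested genes; their medians were 2.60 and 6.01, and 0.27 and 1.86 with groups held at the floor. The macrophage median was 0.11 without C3H/HeJ ISO day 21 replicate 1.

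The divergence lay more in the ISO libraries for ribosomal and oxidative phosphorylation genes. It lay more in the sham libraries for endothelial markers and almost wholly there for pericyte markers, and immediate early genes had a part in both. For ribosomal genes the median difference between C3H/HeJ with KK/HlJ and C57BL/6 was -1.04 in ISO day 21 and 0.35 in sham libraries, and for oxidative phosphorylation genes -0.81 in ISO and 0.36 in sham. For endothelial markers it was 1.23 in ISO and -1.74 in sham, for pericyte markers 0.12 in ISO and -0.98 in sham, and for immediate early genes 0.38 in ISO and -0.29 in sham. Over all genes the median was -0.004 in ISO and -0.14 in sham. At day 14, whose comparison uses the same sham libraries, the median difference of responses was -0.20 for ribosomal, -0.14 for oxidative phosphorylation, 0.01 for immediate early, 0.18 for cAMP, 0.30 for pericyte and 1.76 for endothelial genes. The day 14 median over all genes was 0.16. Single genes had at day 14 0.81 ± 0.54 for Irs2, -0.02 ± 0.53 for Rplp2, 0.25 ± 0.47 for Postn and 2.45 ± 0.65 for Hsph1.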

How the data were processed

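Sorted Thy1+ cells of mouse hearts were the source of RNA-seq libraries made with the KAPA mRNA HyperPrep kit and sequenced as 50 nt single-end reads, per the labels' protocols; the labels call them stranded. The authors deposited raw read counts per gene for each library; STAR 2.5.3a, FastQC, edgeR and the mm10 build are named in the submitters' processing notes. How reads were counted, and with which strand setting, is not given in the sources used here, so overlapping and antisense genes may share reads.

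From the deposited counts, 18 libraries of 7230741 to 26280685 counts in 9 groups of 2 were fitted with edgeR 4.0.16 in R 4.3.3 (TMM scaling, filterByExpr, robust quasi-likelihood test, 9 residual degrees of freedom), and p-values were adjusted by Benjamini-Hochberg over all 15762 genes tested. Of 53342 gene identifiers 53237 matched GENCODE M21, which gave names, coordinates and lengths; the other 105 held 0.001588% of reads. Named genes were the 10 in each direction with the smallest p, a mean of 5 CPM or more in at least 1 of the 6 groups and both strains on the same side of C57BL/6. To these came up to 4 per gene list by p, up to 5 each way for each strain alone, and a few genes given whatever they showed; some genes that met these rules are not reported here. DESeq2 1.42.0, limma 3.58.1 (voom), other scalings and filters, offsets for length and GC content, a replicate block and libraries left out were alternatives. The method was tested on simulated data in which all genes shared the same spread and no library stood apart. That setting is simpler than these libraries, so it does not measure how the method performs on them. The comparison, genes and lists were chosen with earlier results of these data known. Replicates of a group differed well beyond counting noise (chi-square of 59 to 158 per degree of freedom). Mitochondrially encoded genes were not analysed here.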

Additional observations from a re-analysis of the deposited data

How the results depend on the processing

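The absence of calls at an adjusted p of 0.05 depended on the processing. For the difference of responses, for C3H/HeJ alone, for KK/HlJ alone and for C3H/HeJ against KK/HlJ, in that order, DESeq2 called 8, 0, 15 and 6 genes, no filter on low counts 59, 32, 38 and 3, a fit of only the 12 libraries 0, 0, 0 and 1, and a fit without the 4 libraries that stood apart 151, 41, 186 and 81. Leaving out 1 library at a time gave 0 to 284, 0 to 401, 0 to 465 and 0 to 388 calls. The difference of responses had 284 calls without C3H/HeJ sham replicate 2 (214 higher, 70 lower), 261 without KK/HlJ sham replicate 2 (149 higher, 112 lower) and 267, of which 57 higher and 210 lower, without replicate 2 of KK/HlJ ISO day 21; C3H/HeJ alone had 401 without C3H/HeJ sham replicate 2, and KK/HlJ alone 465 and C3H/HeJ against KK/HlJ 388 without KK/HlJ ISO day 21 replicate 2. A group with 1 library left is assumed there to vary like the others. The cause was not tested. RLE scaling, a mean of at least 5 CPM, voom and the offsets gave 0 calls in all 4. A replicate block also gave 0; same-numbered libraries correlated at -0.14 to 0.162 in their deviations, over 0.1 in 4 of 15 pairs, so they share only a number and no pairing was assumed.

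Of the 99 genes run under the alternatives, each for the difference of responses, 3 changed sign. Most of the 99 were named for a small p in these same libraries, so a kept sign was likely from the choice and says little. The 3 were among the genes given whatever they showed. Col1a1 turned to -0.63 with the offsets and -0.21 without C57BL/6 ISO day 21 replicate 1 (range -0.21 to 0.89 over single libraries left out). Acta2 turned to -0.18 without C57BL/6 sham replicate 1 and -0.04 without C57BL/6 ISO day 21 replicate 2 (range -0.18 to 1.30). Tcf21 turned to 0.27 with the offsets, 0.28 without C57BL/6 ISO day 21 replicate 2 and 0.06 without KK/HlJ sham replicate 2 (range -0.40 to 0.28). List medians kept their sign in every alternative for 17 of 34 lists, among them the ribosomal (-1.46 to -0.52), oxidative phosphorylation (-1.36 to -0.37), proteasome (-0.94 to -0.31), cAMP (0.52 to 1.07), immediate early (0.50 to 0.93), endothelial (1.89 to 3.80) and pericyte (0.86 to 1.92) lists. The spread of 2 libraries a group limits what single genes can show: the median standard error was 1.27 on the log2 scale.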

Other observations

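Dbp and Arntl were chosen after their values were seen, because the 2 libraries of a group differed in them. Dbp, a transcription factor that follows the clock, had 616 and 180 CPM with ISO and 29.7 and 187 CPM with sham in C3H/HeJ, 552 and 114 CPM with ISO and 15.3 and 446 CPM with sham in KK/HlJ, and 374 and 113 CPM with ISO and 488 and 12.6 CPM with sham in C57BL/6. ISO overlapped sham in all 3 strains. Arntl, the core activator of the clock, had 0.638 and 31.3 CPM with ISO and 68.5 and 33 CPM with sham in C3H/HeJ, 0.249 and 27.9 CPM with ISO and 33.2 and 5.36 CPM with sham in KK/HlJ, and 3.79 and 56.9 CPM with ISO and 3.02 and 110 CPM with sham in C57BL/6. Its ISO libraries were below both sham libraries in C3H/HeJ and overlapped them in KK/HlJ and C57BL/6. The differences of responses were 1.24 ± 2.23 for Dbp and -0.16 ± 2.86 for Arntl, and neither was run under the alternatives.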
